A study of Mus musculus with 18 samples.

Results

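Genes of fatty acid sensing, uptake and storage, 8 in all, were followed across whole-lung arrays of fetal and newborn mice: the nuclear receptors *Ppara* and *Pparg*, and *Lpl*, *Angptl4*, *Cd36*, *Fabp4*, *Plin2* and *Pnpla2*. The members were chosen by gene symbol, as the probe sets that carry 1 of these 8 symbols and no other, which gave 8 probe sets, 1 for each gene, among 35556 probe sets and 19938 gene symbols. The 18 arrays fell into 6 groups of 3. The Scap groups came from *Scap* flox/flox mice of mixed strain background. Their *Scap* gene, which encodes the escort protein that SREBP needs in order to be activated, was deleted by a Cre that doxycycline switches on through an SP-C promoter-driven activator in fetal lung epithelium (ScapΔ/Δ). Their controls were littermates that lacked the activator or the Cre. These were sampled at embryonic day E18.5 and on the day of birth (PN1). The Insig groups, sampled at E17.5, carried *Insig1* flox/flox and, in controls and Insig1/2Δ/Δ lungs alike, a germline loss of *Insig2*. *Insig1* was removed with the same Cre system in the Insig1/2Δ/Δ lungs, which takes a brake off SREBP. The dams had doxycycline early in gestation, the deletion is in epithelial cells and incomplete, and the RNA is from all cells of the lung. The labels say that genotype groups were told apart manually, and E17.5 arrays of the Scap line were not analysed here.

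The PPARs are nuclear receptors that bind fatty acids and their derivatives, pair with an RXR receptor and sit on DNA at a pair of AGGTCA half-sites spaced by a single base. PPAR alpha is best known for turning on fatty acid oxidation, and PPAR gamma for adipocyte differentiation and lipid storage. In the late fetal lung, lipid-laden interstitial fibroblasts (lipofibroblasts) take up and store triglyceride beside the alveolar type II epithelial cells, which make surfactant lipid. PPAR gamma and the droplet protein perilipin 2 are commonly used to mark them, while macrophages and capillary endothelium also carry several of these genes.

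Promoter windows, 250 bases before to 50 bases after the annotated start, are shown for the receptors and for *Plin2* and *Cd36*, since the text compares how these genes moved together. They are from RefSeq on build GRCm38.p6, which held windows for 5 of the 8 genes. *Lpl*, *Fabp4* and *Angptl4* were not among them. Capitals mark an AGGTCA half-site on either strand (read as TGACCT on the minus strand) and the E-box CACGTG. The windows are chr15:85735526-85735825 on the plus strand for *Ppara*, chr6:115360894-115361193 on the plus strand for the first start of *Pparg*, chr4:86670010-86670309 on the minus strand for *Plin2* and chr5:17835847-17836146 on the minus strand for *Cd36*.
Ppara: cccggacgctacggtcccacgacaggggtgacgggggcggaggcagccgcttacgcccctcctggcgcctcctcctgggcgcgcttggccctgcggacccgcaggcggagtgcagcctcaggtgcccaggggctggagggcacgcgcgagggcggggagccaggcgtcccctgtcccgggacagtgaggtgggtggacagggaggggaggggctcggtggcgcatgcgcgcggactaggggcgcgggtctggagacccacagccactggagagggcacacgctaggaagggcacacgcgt
Pparg: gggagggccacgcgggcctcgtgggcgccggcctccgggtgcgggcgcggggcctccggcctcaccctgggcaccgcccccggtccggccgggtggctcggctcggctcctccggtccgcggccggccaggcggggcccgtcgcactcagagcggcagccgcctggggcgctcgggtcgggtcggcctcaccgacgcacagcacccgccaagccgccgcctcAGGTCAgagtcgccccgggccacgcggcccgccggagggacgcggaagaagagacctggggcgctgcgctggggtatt
Plin2: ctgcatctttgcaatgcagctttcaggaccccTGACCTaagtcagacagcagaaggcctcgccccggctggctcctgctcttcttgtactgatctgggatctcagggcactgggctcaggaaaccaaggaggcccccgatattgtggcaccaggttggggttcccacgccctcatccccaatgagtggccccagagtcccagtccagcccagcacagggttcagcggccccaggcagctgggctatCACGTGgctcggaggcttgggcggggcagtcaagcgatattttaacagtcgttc
Cd36: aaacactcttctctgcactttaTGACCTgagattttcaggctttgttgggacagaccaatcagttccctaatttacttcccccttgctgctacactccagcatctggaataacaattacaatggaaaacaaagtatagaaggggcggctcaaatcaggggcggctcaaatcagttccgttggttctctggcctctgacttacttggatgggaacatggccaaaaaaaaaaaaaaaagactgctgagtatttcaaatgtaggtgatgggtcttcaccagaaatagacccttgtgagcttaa

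An AGGTCA half-site lay at position -28 from the first *Pparg* start, at -218 in *Plin2* and at -228 in *Cd36*, and none lay in the *Ppara* window. The letters AGGTCA occurred on either strand in 16.3% of 32851 promoter windows of the same length, so a single match is common. The paired form, 2 such half-sites in tandem with any 1 base between them, occurred in 0.0396% of windows and in none of the 7 windows of these genes. The *Plin2* window also held CACGTG at -4, a motif found in 7.15% of windows. TCACNCCAC, a form of the sterol regulatory element that SREBP binds, was in 1.24% of windows and in none of the 7. These are matches of letters, not sites of binding.

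Values are log2 expression as deposited, from 3.09 to 14.05 over all probe sets, with array medians of 7.42 to 7.70, and the levels of different probe sets were not set against each other. All 8 genes passed the filter on low values, which asked for a value at or above the 35th percentile of the array in 66% or more of the arrays fitted. A gene was called when its adjusted p was below 0.05 in limma over all probe sets that passed. The targeted genes bore out the labels. *Scap* was 9.22 to 9.65 in the 6 ScapΔ/Δ arrays and 9.71 to 9.92 in their 6 controls, and *Insig1* was 8.21 to 8.58 in Insig1/2Δ/Δ and 9.29 to 10.002 in its controls. 2 ScapΔ/Δ arrays of PN1, KO17 and KO18, stood apart. Without them the highest array median was 7.50 in place of 7.70. Pearson's r over all probe sets was 0.9944 between the pair, 0.9312 to 0.9599 between either of them and the remaining 16 arrays, and 0.9729 to 0.9975 within those 16. Results of the members that rest on these arrays are given with and without them below. Differences of the gene lists are given with them only. No type I cell, type II cell or lipofibroblast marker was below the 35th percentile in all 18 arrays. Of 10 adipocyte markers, *Adipoq*, *Lep*, *Ucp1*, *Cidea* and *Elovl3* were below the 35th percentile in all 18.

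The order of the 6 groups differed from gene to gene. *Angptl4* separated newborn from fetal lungs most clearly, with means of 10.01 ± 0.05 (SD, n = 3) in PN1 controls and 9.55 ± 0.57 in PN1 ScapΔ/Δ, and no fetal array above 8.48. *Ppara* ran the other way, from 8.23 ± 0.25 in Insig controls down to 7.61 ± 0.18 in PN1 controls and 7.21 ± 0.16 in PN1 ScapΔ/Δ, and the arrays of those 2 lowest groups did not overlap. *Cd36* was lowest in the E17.5 Insig line, at 11.52 ± 0.27 in controls and 11.69 ± 0.37 in Insig1/2Δ/Δ, below every Scap array. It was highest in PN1 controls at 12.41 ± 0.03. *Plin2* was likewise highest in PN1 controls, at 11.90 ± 0.0016, where its arrays did not overlap with the next group, the E18.5 controls at 11.65 ± 0.08. The 5 lower *Plin2* groups overlapped with their neighbours in the order. All neighbouring groups overlapped for *Pparg*, *Lpl*, *Fabp4* and *Pnpla2*. With 3 arrays a group, the exact permutation test between neighbours cannot give a p below 0.1. Line and age are tied between the Insig and Scap arrays, so the difference of *Cd36* between E17.5 and E18.5 cannot be told apart from a difference of line.

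**Figure D1:**
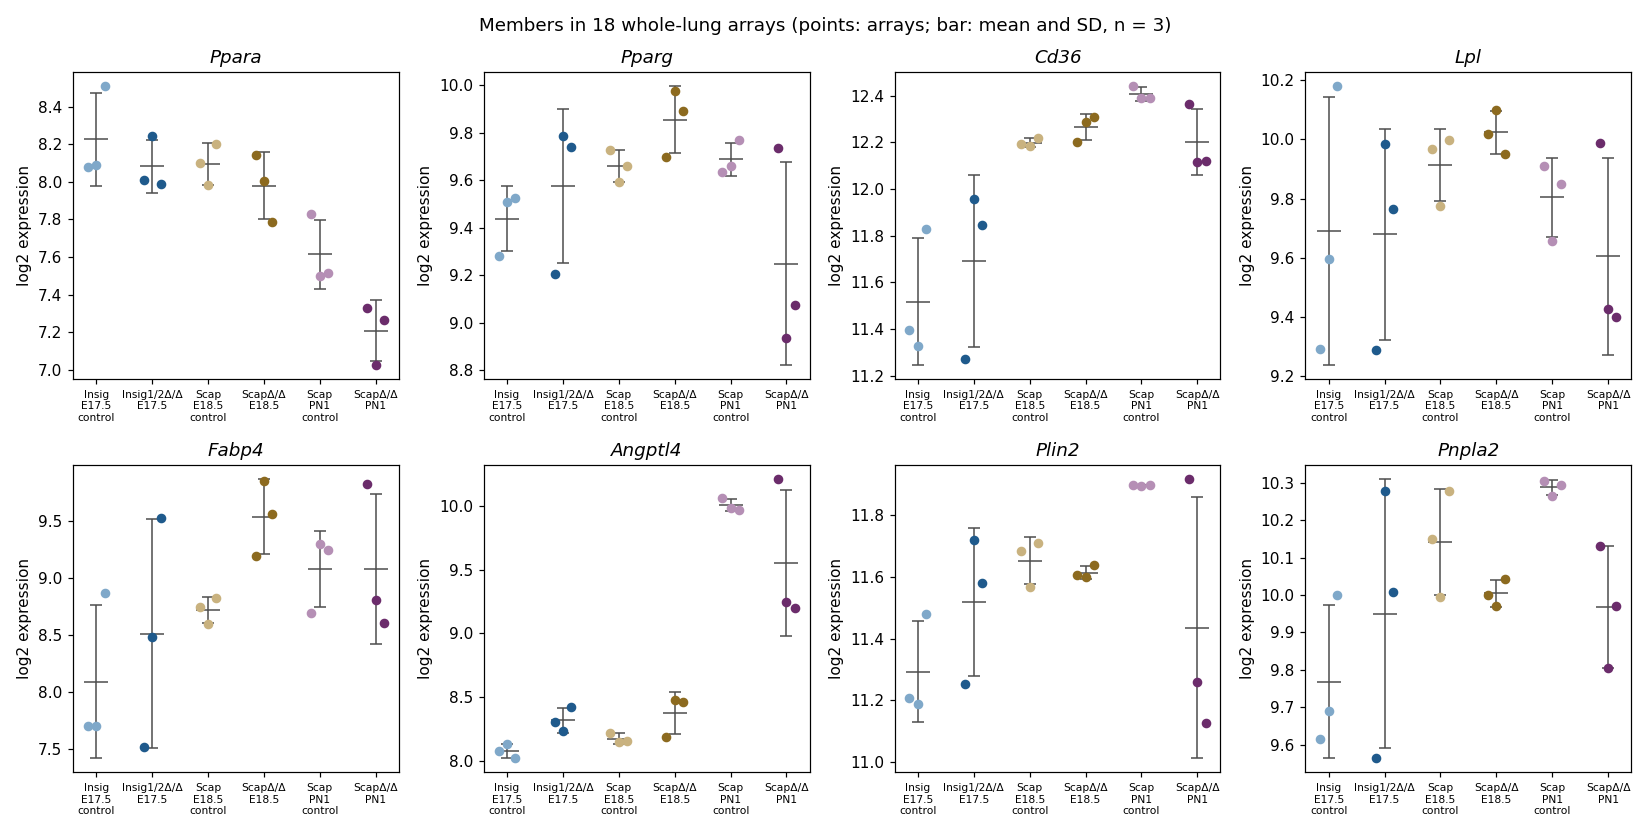
Log2 expression of the 8 genes (1 panel each, with its own vertical scale) in 6 groups of 3 arrays; points are arrays and bars the mean and SD. *Angptl4* lies between 8.02 and 8.48 in the fetal arrays and between 9.20 and 10.21 in the newborn arrays, and the PN1 ScapΔ/Δ group is split for most genes, with 1 array at the level of the controls or above and 2 below.

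The first comparison asked how the genes changed from late gestation to the day of birth in control lungs. *Angptl4*, a secreted inhibitor of lipoprotein lipase and a PPAR target, rose 3.56-fold and was the only member called. Its values were 8.22, 8.15 and 8.15 in the E18.5 controls and 10.06, 9.99 and 9.97 in the PN1 controls. The groups lay far apart against a spread of under 0.1 within each. The difference was 1.83 on the log2 scale (SE 0.22, adjusted p = 0.00289, limma), and 2.58% of all probe sets were called in this comparison (1.19% higher, 1.39% lower). It kept its call in 20 of 20 alternatives, with values from 1.80 to 1.86. Because these are whole lungs, fewer cells of a type and less RNA per cell cannot be told apart, here and in every result that follows.

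The other 7 members were not called between E18.5 and PN1 controls. *Ppara* was 8.10, 7.98 and 8.20 at E18.5 and 7.83, 7.50 and 7.51 at PN1. All 3 newborn values were below all fetal ones, a difference of -0.48 (SE 0.13, adjusted p = 0.0863, limma). *Plin2*, which coats lipid droplets, was 11.68, 11.57 and 11.71 at E18.5 and 11.90 in each of the 3 newborn controls. Its difference of 0.24 (SE 0.16, adjusted p = 0.663, limma) and that of *Cd36*, the membrane fatty acid carrier, at 0.21 (SE 0.081, adjusted p = 0.268, limma), also came from groups that did not overlap. 34.1% of all probe sets did not overlap between these groups, against 4 of the 8 members. *Pparg* hardly differed, with a difference of 0.028 and an interval of -0.36 to 0.41. Without KO17 and KO18, which enter this comparison only through the shared spread, *Ppara*, *Plin2* and *Cd36* were called too (adjusted p = 0.0296, 0.0215 and 0.0331, limma), beside 5.63% of all probe sets higher and 5.4% lower.

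Genes of linked pathways moved in both directions over the same interval. Among 20 tested genes of fatty acid oxidation, *Cpt1a*, which carries fatty acids into mitochondria and is a PPAR alpha target, rose 1.79-fold (adjusted p = 0.00497, limma) and *Acadl*, an acyl-CoA dehydrogenase, rose 1.34-fold (adjusted p = 0.0153). The other 18 were not called, and the median of the list was 0.086, beside 0.0076 over all probe sets. Of 7 lipolysis genes *Lipe*, hormone-sensitive lipase, rose 1.37-fold (adjusted p = 0.0491). Of 13 droplet genes *Dgat2*, which makes triglyceride, fell 2.02-fold (adjusted p = 0.0135). No receptor partner or cofactor among 9 was called. The largest differences among them were those of *Rxra* at -0.28 and *Ppard* at -0.20.

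*Angptl4* is also known as a hypoxia-induced gene, and a list of other genes of that kind was read beside it. Of 13 tested, 12 were below 0, 5 were called lower and none higher, with a median of -0.44. *Ankrd37* fell 2.99-fold (adjusted p = 0.000672, limma), *Egln3* 2.59-fold (adjusted p = 0.0224) and *Ndrg1* 2.23-fold (adjusted p = 0.00521). *Slc2a1* and *Pdk1* were the other calls, at -0.94 and -0.76. Of 10 genes of the PTHrP, leptin and glucocorticoid signals that act on lipofibroblasts, the glucocorticoid-induced *Fkbp5* fell 1.98-fold (adjusted p = 0.0181) and *Tsc22d3* 1.58-fold (adjusted p = 0.0368), while *Sgk1* rose 2.24-fold (adjusted p = 0.00747). Of 11 adipogenic genes *Klf15*, *Cebpd* and *Slc2a4* fell, at -0.997, -0.59 and -0.47. Of 11 genes of the SREBP list *Sqle*, of sterol synthesis, rose 2.16-fold and *Scd2*, a fatty acid desaturase, fell 1.53-fold. Cell markers moved between these stages too. The mean over 6 neutrophil markers was 7.38 to 7.58 in E18.5 controls and 8.55 to 8.81 in PN1 controls, with 3 of 6 called higher, and the mean over 7 smooth muscle and pericyte markers went from between 9.91 and 10.13 to between 10.65 and 10.86, with 4 of 7 called higher. The 10 lipofibroblast and matrix fibroblast markers had means of 11.05 to 11.12 and 10.82 to 10.99. The part of these genes and of the markers in the change of *Angptl4* was not tested.

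In ScapΔ/Δ lungs the same interval gave 4 called members, *Angptl4* higher and *Ppara*, *Pparg* and *Lpl* lower, against 37.6% of all probe sets called (17.5% higher, 20.1% lower). With every array centred on its median the calls were 1994 higher and 6655 lower in place of 3995 and 4586, and no member turned sign here. The comparisons within the Scap line share arrays, so their values stand side by side and are not independent. *Angptl4* was 8.19, 8.48 and 8.46 at E18.5 and 10.21, 9.25 and 9.20 at PN1. It rose 2.26-fold (log2 difference 1.18, SE 0.22, adjusted p = 0.00678, limma). Of the newborn arrays KO16 was above every newborn control, and KO17 and KO18 lay between the fetal and the control newborn levels. *Ppara* was 8.14, 8.01 and 7.79 at E18.5 and 7.33, 7.03 and 7.27 at PN1, and fell 1.71-fold (adjusted p = 0.00461, limma), with no overlap of the groups. *Angptl4* did not overlap either, and 16.7% of all probe sets were higher and 17.3% lower in this way. Without KO17 and KO18 the *Angptl4* difference was 1.83 (adjusted p = 0.000795) and that of *Ppara* was -0.65 (adjusted p = 0.0515, limma), 1 array then standing for PN1 ScapΔ/Δ and taken to vary like the other groups.

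The calls of *Pparg* and *Lpl* rested on KO17 and KO18. *Pparg* fell by 0.61 (SE 0.17, adjusted p = 0.0263, limma) and *Lpl*, the lipase that releases fatty acids from lipoproteins, by 0.42 (SE 0.15, adjusted p = 0.0472). The fetal and newborn arrays overlapped for both. Without KO17 and KO18 the differences were -0.12 (adjusted p = 0.579) and -0.037 (adjusted p = 0.892, limma), and the share of all probe sets called went from 37.6% to 6.2%. *Pparg* also lost its call without KO11, KO12, KO17 or KO18 singly, with values from -0.45 to -0.59, and *Lpl* without any single array other than KO16, with values from -0.32 to -0.45. The *Lpl* call was kept in 4 of 20 alternatives, and was also lost with no filter, with quantile normalization and in 1 fit of 18 arrays (adjusted p = 0.0542, 0.0667 and 0.114, limma).

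**Figure D2:**
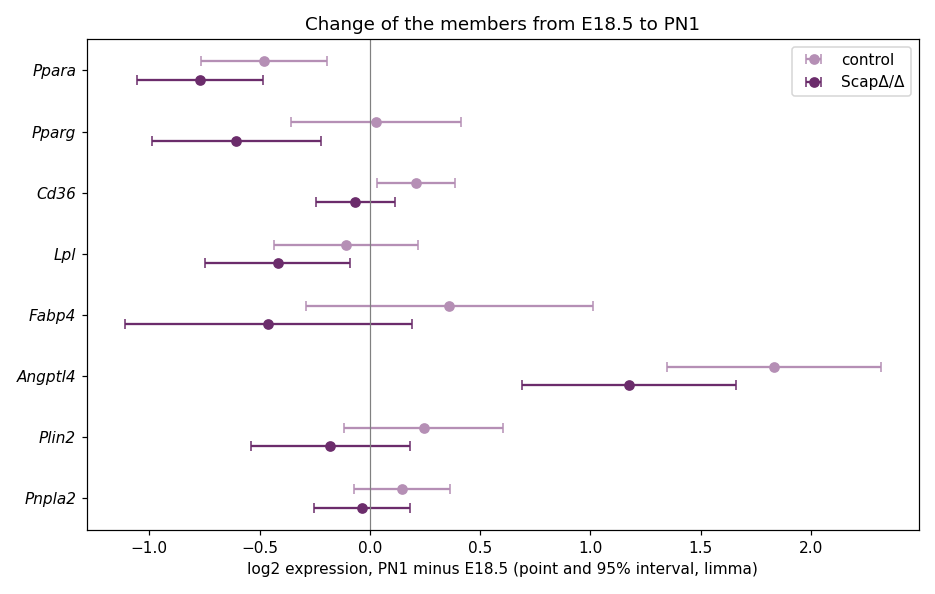
Log2 difference between PN1 and E18.5 for each gene in control (light) and ScapΔ/Δ (dark) lungs, with the limma 95% interval; 3 arrays a group. *Angptl4* lies at 1.83 in controls and 1.18 in ScapΔ/Δ, and *Ppara* lies below 0 in both, at -0.48 and -0.77.

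The second comparison asked what loss of epithelial *Scap* did at birth. No member was called in PN1 ScapΔ/Δ against control lungs, where 0.00877% of all probe sets were, although all 8 differences were below 0, with a median of -0.36. The median over all probe sets depended on the filter. It was -0.059 here, -0.12 with a filter at the 50th percentile and 0.027 with no filter. Every member but *Ppara* lay above the 50th percentile in all 18 arrays. *Ppara*, *Cd36* and *Pnpla2* were lower in each of the 3 ScapΔ/Δ arrays than in every control, 3 of 8 members against 16.6% of all probe sets in either direction. *Ppara* was 7.33, 7.03 and 7.27 in ScapΔ/Δ and 7.50 to 7.83 in controls, a difference of -0.41 (SE 0.13, adjusted p = 0.0926, limma). *Pnpla2*, the lipase that begins triglyceride breakdown in droplets, was 10.13, 9.80 and 9.97 against 10.27 to 10.30 in controls. It differed by -0.32 (SE 0.10, adjusted p = 0.0918). *Cd36* was 12.36, 12.12 and 12.12 against 12.39 to 12.44, a difference of -0.21 (SE 0.081, adjusted p = 0.121). The exact permutation p of each of these 3 was 0.1, the smallest this design can give.

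For the other 5 members the PN1 ScapΔ/Δ arrays were split. For KO16, KO17 and KO18 in turn *Pparg* was 9.74, 8.94 and 9.08, against 9.64, 9.66 and 9.77 in the controls. *Plin2* was 11.92, 11.26 and 11.13 against 11.90 in each control. KO16 lay at the level of its controls for both genes, and the other 2 arrays were below all of them. The differences were -0.44 for *Pparg* (SE 0.17, adjusted p = 0.124, limma) and -0.46 for *Plin2* (SE 0.16, adjusted p = 0.104). *Angptl4* differed by -0.45 (SE 0.22, adjusted p = 0.175) and *Lpl* by -0.20 (SE 0.15, adjusted p = 0.343). Both had KO16 above every control and KO17 and KO18 below. *Fabp4*, a cytosolic fatty acid carrier of fat, endothelium and macrophages, was 9.83, 8.80 and 8.60 against 8.70, 9.30 and 9.24. Its mean difference was -0.003, with an interval from -0.65 to 0.65.

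Which arrays enter decides the PN1 result. Without KO16, 7 of the 8 members, all but *Fabp4*, were called lower, with differences from -0.29 for *Cd36* to -0.78 for *Angptl4* (adjusted p from 7.48e-06 to 0.0102, limma), when 61.9% of all probe sets were called and 37.8% were called lower. Without KO17 and KO18 a single array, KO16, stood for PN1 ScapΔ/Δ, so few differences could be called and the direction alone is read. *Pparg*, *Plin2*, *Lpl*, *Fabp4* and *Angptl4* then turned to 0.047, 0.02, 0.18, 0.75 and 0.20. *Ppara*, *Cd36* and *Pnpla2* stayed below 0, at -0.28, -0.043 and -0.16. The deletion showed in all 3 arrays. *Scd1*, the stearoyl-CoA desaturase and an SREBP target, fell to 8.45 in KO16, to 8.004 in KO17 and to 7.55 in KO18, from 11.23 to 11.90 in the controls.

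Markers of several cell types were lower in the same 2 arrays. The mean over 10 type II cell markers was 11.58 in KO17 and 11.52 in KO18, against 11.89 in KO16 and 12.12 to 12.16 in PN1 controls. Over 11 macrophage markers it was 8.52 and 8.58, against 9.27 in KO16 and 9.15 to 9.32 in controls. Over the 10 lipofibroblast and matrix fibroblast markers it was 10.61 and 10.66, against 10.84 and 10.82 to 10.99. Type I cell, airway and erythroid lists had their lowest PN1 values in KO17 and KO18 too. The mean over 12 endothelial markers was 11.23 and 11.27, against 11.22 in KO16 and 11.28 to 11.60 in controls. No marker of the lipofibroblast, type II cell or macrophage lists was called. Their medians were -0.24, -0.37 and -0.51, and their part in the lower *Pparg* and *Plin2* was not tested.

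**Figure D3:**
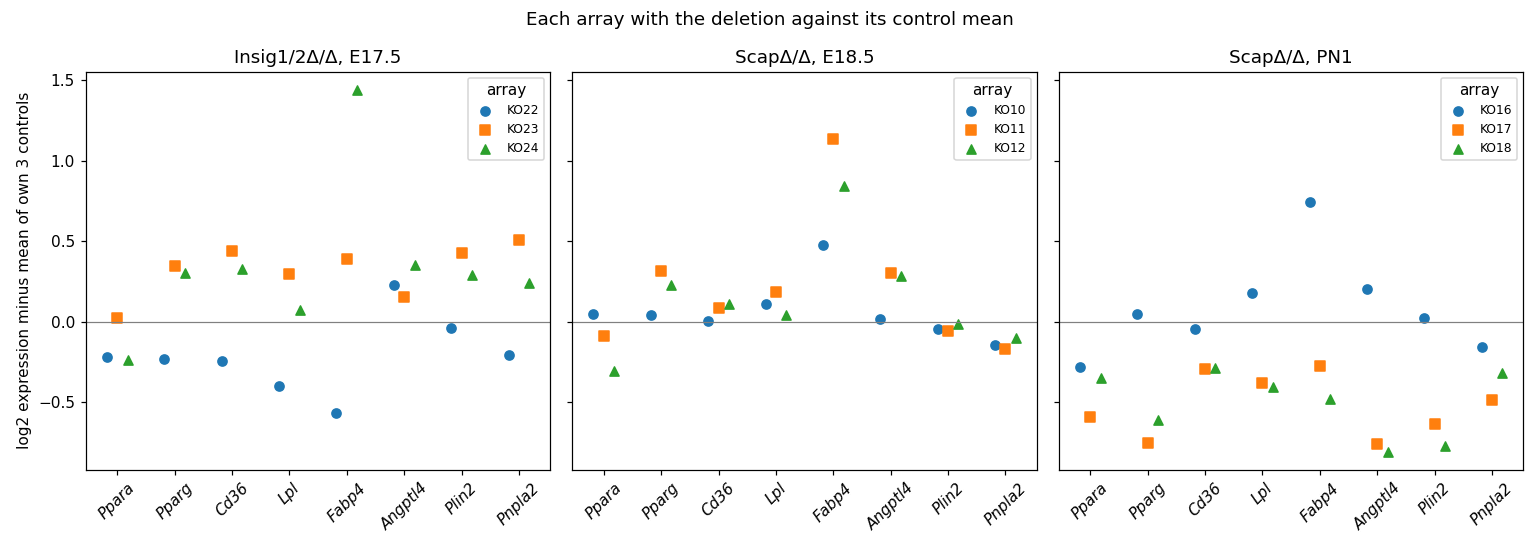
Each array with a deletion minus the mean of its 3 controls, in log2 expression, for the 8 genes (horizontal axis) in Insig1/2Δ/Δ at E17.5 and ScapΔ/Δ at E18.5 and PN1; symbols are arrays. In the PN1 panel KO17 and KO18 lie below 0 for all 8 genes and KO16 lies above 0 for 5, and *Fabp4* lies above 0 in all 3 E18.5 arrays.

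In ScapΔ/Δ at PN1, of 10 tested genes of fatty acid uptake and binding, none was called and all 10 were below 0 (median -0.36), led by *Fabp5*, a fatty acid carrier of epithelium and macrophages, at -1.33 (adjusted p = 0.0897, limma). The arrays KO16, KO17 and KO18 had *Fabp5* at 11.26, 9.70 and 9.73, and controls had it at 11.37 to 11.69, above all 3. Of 20 oxidation genes 18 were below 0 and none was called (median -0.37). *Vnn1* was at -1.08 and *Acot2* at -0.71, both PPAR alpha targets in mouse liver. Of 13 droplet genes 9 were below 0, with *Dgat2* at -0.58 and *Plin3* at -0.53. Of 7 lipolysis genes 5 were, with *Mgll*, monoacylglycerol lipase, at -0.59 and the lysosomal *Lipa* at -0.49. None of these 4 was called. The differences in this paragraph include KO17 and KO18 and are not given without them. For *Vnn1*, *Dgat2*, *Plin3* and *Lipa* the ScapΔ/Δ arrays overlapped with the controls. Of 14 lipoprotein lipase partners and lipoprotein receptors 11 were below 0 and 3 above, and none was called. *Lipg*, endothelial lipase, was at -0.98 (adjusted p = 0.0944, limma) and *Lrp1* at 0.69, both with overlap of the arrays. The 9 receptor partners and cofactors gave no call, with 4 above 0 and 5 below (median -0.015), *Ppard* at -0.45 and *Ncoa2* at 0.29. The only calls in the lists examined were *Scd1* at -3.54 (adjusted p = 0.014) and *Scd2* at -1.21 (adjusted p = 0.00473, limma), both of the SREBP list, where 10 of 11 genes were below 0.

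At E18.5, before birth, ScapΔ/Δ lungs showed no called member, where 0.00877% of all probe sets were called, and *Fabp4* had the largest difference. *Fabp4* was 9.20, 9.85 and 9.56 in ScapΔ/Δ and 8.74, 8.60 and 8.82 in controls. Every ScapΔ/Δ array was above every control, by 0.82 on average or 1.76-fold (SE 0.29, interval 0.17 to 1.47), with adjusted p = 0.511 in limma and an exact permutation p of 0.1. 14.5% of all probe sets were higher without overlap, so 1 of 8 members is near that share. KO11, with the highest *Fabp4*, also had the highest mean over 6 hepatocyte markers, 8.36, against 7.21 in KO10 and 6.50 in KO12. The 11 macrophage markers had means of 9.08 to 9.23 in ScapΔ/Δ and 8.94 to 9.09 in controls, and the 12 endothelial markers 11.09 to 11.24 and 11.28 to 11.32. The 10 adipocyte markers had means of 6.579 to 6.610 in ScapΔ/Δ and 6.531 to 6.556 in controls, and the 6 neutrophil markers 7.599 to 7.925 and 7.377 to 7.584. Their part in the *Fabp4* difference was not tested.

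The other 7 members lay within 0.20 of their controls at E18.5. *Angptl4* differed by 0.20 (SE 0.22) and *Pparg* by 0.20 (SE 0.17), with KO11 and KO12 above the controls for both and KO10 among them. *Plin2* differed by -0.039, with an interval of -0.40 to 0.32, and *Cd36* by 0.067, with an interval of -0.11 to 0.25. No gene of the neighbouring pathways was called. *Eci1*, of fatty acid oxidation, was at 0.49 and *Hilpda*, a droplet protein that restrains lipolysis, at 0.44. *Dlk1*, which holds back adipocyte differentiation, was at -0.47 (adjusted p = 0.511, limma), and *Scd1* at -2.68 (adjusted p = 0.126).

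The effect of *Scap* loss at PN1 minus that at E18.5 was below 0 for all 8 members, and none was called, as for 0% of all probe sets (4181 had an unadjusted p below 0.05, and the fit with array weights called 14685). *Pparg* gave -0.63 (SE 0.25), *Fabp4* -0.82 (SE 0.42), *Angptl4* -0.66 (SE 0.31) and *Cd36* -0.27 (SE 0.11), each with adjusted p = 0.265 in limma. Here too the arrays decided. Without KO16, 6 of 8 members were called, when 58.4% of all probe sets were. Without KO17 and KO18 the PN1 effect rested on KO16 alone, and the differences ran from -0.17 for *Ppara* to 0.07 for *Lpl*.

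The third comparison, at E17.5, took the brake off SREBP in place of SREBP's activator. No member and 0% of all probe sets were called between Insig1/2Δ/Δ and control lungs (933 probe sets had an unadjusted p below 0.05, and the fit with array weights called 8366). *Angptl4* was 8.30, 8.23 and 8.43 in Insig1/2Δ/Δ and 8.08, 8.13 and 8.02 in controls. It was higher in 3 of 3 arrays, by 0.24 (SE 0.076, adjusted p = 0.758, limma), and was 1 of 8 members without overlap, against 5.83% of all probe sets in that direction. *Fabp4* was 7.52, 8.48 and 9.53 against 7.71, 7.70 and 8.86. Its difference of 0.42 was smaller than its SE of 0.55, and both groups held low and high arrays. The other 6 members had differences from -0.14 for *Ppara* to 0.23 for *Plin2*.

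Within the Insig line the arrays formed 2 sets that cut across genotype. C19, C20 and KO22 correlated at 0.996 to 0.9967, and C21, KO23 and KO24 at 0.9932 to 0.9955, against 0.984 to 0.9914 between the sets. 7 of the 8 members had a higher mean in the second set, *Fabp4* by 1.31, *Lpl* by 0.58, *Cd36* by 0.55, *Pnpla2* by 0.47, *Plin2* by 0.38, *Pparg* by 0.35 and *Ppara* by 0.19. For *Ppara* the sets overlapped, with C21 highest (8.51) and KO24 lowest (7.99) of the Insig arrays. *Angptl4* alone differed by under 0.1, at 0.054. The sets were found from the arrays themselves, so these are descriptions. Within the sets, KO22 was set against C19 and C20 in the first, and KO23 and KO24 against C21 in the second. The *Angptl4* difference between Insig1/2Δ/Δ and control was then 0.20 in the first and 0.31 in the second. That of *Fabp4* was -0.18 and 0.14, and that of *Cd36* was -0.091 and 0.072. Each has a single array on one side, and set and genotype are partly tied.

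Markers that differed with single Insig arrays are given beside the members they went with. C21 had the highest *Lpl* (10.18) and *Ppara* (8.51) of all 18 arrays, and a mean over 7 cardiac muscle markers of 11.59, against 9.32 to 10.25 in the other 17. Heart muscle is rich in both genes. KO24 had the highest *Fabp4* of the 6 Insig arrays and a mean over 10 adipocyte markers of 7.11, against 6.31 to 6.70 elsewhere. Its *Car3*, a carbonic anhydrase of fat and muscle, was 11.02, and 6.14 to 7.39 in the other 17 arrays. Over the 9 other adipocyte markers KO24 had 6.68, within the 6.31 to 6.70 of the other 17. *Adipoq*, which defines adipocytes, was 6.04 in KO24 and 5.12 to 5.42 in the other 17, and stayed below the 35th percentile there. The first set was lower in type II cell markers (11.39 to 11.68, against 11.84 to 12.02 in the second) and in type I cell markers (11.18 to 11.48, against 11.61 to 11.69). It was also lower, without overlap, in endothelial markers (11.05 to 11.10, against 11.19 to 11.34) and macrophage markers (8.18 to 8.23, against 8.37 to 8.59). The same held for the airway, erythroid, adipocyte and cardiac muscle lists. Smooth muscle, hepatocyte and neutrophil lists overlapped between the sets. Lipofibroblast markers overlapped too, at 10.91 to 10.95 and 10.86 to 11.02. The part of these markers was not tested.

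Over the 16 arrays other than KO17 and KO18, which share line and stage within groups, the members closest to each other were *Plin2* with *Pnpla2* (Pearson r = 0.93) and *Plin2* with *Cd36* (r = 0.92), and all 15 pairs among *Pparg*, *Plin2*, *Cd36*, *Lpl*, *Fabp4* and *Pnpla2* were positive, at 0.57 to 0.93. *Ppara* and *Angptl4* ran opposite (r = -0.86). Over all 18 arrays the 15 pairs had r from 0.46 to 0.87, *Plin2* with *Cd36* 0.74 and *Pparg* with *Cd36* 0.46 (0.77 without KO17 and KO18), while *Ppara* with *Angptl4* was at -0.76 and *Ppara* with *Pparg* went from -0.25 to 0.39. Among 15022 genes, those most like *Cd36* were *Cyp4b1* (r = 0.98), *Arhgef3* (0.98) and *Calcrl* (0.98), those most like *Plin2* were *Pgs1* (0.98), *Cldn5* (0.97) and *Lgmn* (0.97), and those most like *Pnpla2* were *Tmem109* (0.97), *Rras* (0.97) and *Lamp1* (0.96). *Angptl4* was closest to *Cldn23* (0.97), *Chrnb1* (0.97) and *Plpp1* (0.97), and *Ppara* to *Cnst* (0.96), *Spata13* (0.95) and *Egln1* (0.95). *Pparg* was closest to *Tmem87a* (0.94), *Gdpd1* (0.93) and *Hbp1* (0.93), *Fabp4* to *Chmp2b* (0.99), *Rhot1* (0.96) and *Ginm1* (0.95), and *Lpl* to *Man1a* (0.89), *Cp* (0.88) and *Txnip* (0.87). With KO17 and KO18 included, several of these fell away, *Chmp2b* to 0.45 and *Cnst* to 0.63, while *Cyp4b1* (0.98), *Cldn23* (0.96) and *Egln1* (0.97) did not. The likeness is of these values only, since the arrays of a group are not independent points.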

How the data were processed

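Total RNA of whole lungs had been hybridized to Affymetrix Mouse Gene 1.0 ST arrays, and the authors deposited log2 expression values per probe set. GeneSpring GX is named in their methods. The summarization and normalization of these values are not given in the sources used here, so differences carry that choice, and the number of arrays (3 a group) limits precision. Of 35556 probe sets, 21789 had 1 gene symbol in the platform annotation, 1621 several and 12146 none.

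The 12 Scap arrays (22800 probe sets) and the 6 Insig arrays (22775) were fitted separately by group means in limma 3.58.1 (R 4.3.3), with Benjamini-Hochberg adjustment over all probe sets tested. The fits were tested on simulated data. Exact permutation tests of 3 against 3 arrays were two-sided. The methods call the replicates biological, the labels name no animals, and p-values measure the spread between these arrays. The members and lists were chosen with earlier results of these data known. Of each pathway list, the called genes were named, otherwise the 2 genes with the largest difference or fewer. From E18.5 to PN1 in ScapΔ/Δ only the members were named, and marker genes were named after their values were seen. Alternatives were other filters, quantile normalization, median centring, array weights, 1 fit of 18 arrays, the methods' t-test and leaving out arrays. Leaving out KO17 and KO18 together and a block for the Insig sets were chosen after seeing the data.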

Additional observations from a re-analysis of the deposited data

How the results depend on the processing

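Of 904 alternative values of the 48 member differences, 800 kept direction and side of the threshold, 47 were called only under the alternative, 25 lost their call and 32 turned sign. All 32 were of differences that were not called.

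The number of probe sets called moved more. For ScapΔ/Δ at E18.5 it was 2, and 1 with no filter or with quantile normalization, 0 with median centring or the methods' t-test, 5 with all 18 arrays in 1 fit, 2558 with array weights, 21 without KO17 and KO18, and 0 to 99 leaving out 1 array. For ScapΔ/Δ at PN1 it was 2, and 18 with no filter, 2995 in 1 fit, 15526 with array weights, 0 with the t-test, 0 without KO17 and KO18, and 1 to 14010 leaving out 1 array, the highest without KO16. Leaving out KO17 and KO18 left KO16 alone for PN1 ScapΔ/Δ, so few differences with that group could be called and such counts say little. The array weights were 0.049 for KO16 and 10.05 for KO17. The weighted fit of the Scap arrays therefore gave KO16 little part and is not separate from leaving it out. For Insig1/2Δ/Δ it was 0, and 8366 with array weights. From E18.5 to PN1 it was 589 in controls, and 292 with median centring, 2846 with array weights, 2516 without KO17 and KO18 and 140 to 2718 leaving out 1 array. In ScapΔ/Δ it was 8581, and 17351 with array weights, 5 with the t-test, 1414 without KO17 and KO18 and 1716 to 16316 leaving out 1 array. For the PN1 effect minus the E18.5 effect it was 0, and 14685 with array weights and 0 to 13219 leaving out 1 array. Median centring moved the median of all probe sets at PN1 from -0.059 to -0.19. The cause was not tested.

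The differences that turned sign did so as follows. Without KO17 and KO18, PN1 ScapΔ/Δ against control gave *Pparg* 0.0474, *Plin2* 0.0204, *Lpl* 0.18, *Fabp4* 0.75 and *Angptl4* 0.20. PN1 against E18.5 in ScapΔ/Δ gave *Plin2* 0.30, *Cd36* 0.0986, *Fabp4* 0.29 and *Pnpla2* 0.13, and the PN1 effect minus the E18.5 effect gave *Plin2* 0.0592, *Lpl* 0.0703 and *Angptl4* 0.0028. Quantile normalization gave *Cd36* 0.087 and *Pnpla2* 0.0923 for PN1 against E18.5 in ScapΔ/Δ, *Fabp4* 0.0056 at PN1 and *Lpl* 0.0068 in Insig1/2Δ/Δ. Array weights gave *Ppara* 0.0761 and *Lpl* 0.35 in Insig1/2Δ/Δ and *Pparg* -0.0029 between control stages. Median centring gave *Plin2* 0.0008 at E18.5. With the Insig sets as a block, *Cd36* was -0.0092 and *Fabp4* -0.0203. Leaving out 1 array, *Pparg* between control stages ran from -0.0124 to 0.0613, *Lpl* in Insig1/2Δ/Δ from -0.21 to 0.23 and *Fabp4* there from -0.0887 to 0.91, *Fabp4* at PN1 from -0.38 to 0.23, and *Pnpla2* from E18.5 to PN1 in ScapΔ/Δ from -0.12 to 0.046. The methods' t-test ended all 4 calls from E18.5 to PN1 in ScapΔ/Δ, of *Angptl4* (adjusted p = 0.226), *Ppara* (0.16), *Pparg* (0.25) and *Lpl* (0.257). The controls were littermates, but the labels name no litter, so no paired analysis was possible and any likeness within litters was not taken into account.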

Other observations

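Genes next to the members in the Insig line gave values but no calls. *Apoc1*, an apolipoprotein, differed between Insig1/2Δ/Δ and control lungs by 0.97 and *Lipg* by 0.86, *Fabp5* by 0.56 and *Hilpda* by 0.37 (each adjusted p = 0.758, limma). *G0s2*, the inhibitor of the lipase that *Pnpla2* encodes, was higher in each Insig1/2Δ/Δ array than in every control, by 0.31 (SE 0.09), as were 5.83% of all probe sets. Of 13 droplet genes 12 were above 0, with a median of 0.12 beside 0.014 over all probe sets. *Ppargc1a*, a coactivator of the PPARs, was at -0.31 (SE 0.10). It had the largest difference of 9 receptor partners and cofactors, of which 8 were below 0, with a median of -0.15 beside the same 0.014. At PN1 in ScapΔ/Δ, *Per1*, a glucocorticoid-responsive clock gene, was at 1.22 (adjusted p = 0.0897) and *Zbtb16* at 1.004 (adjusted p = 0.282, limma). *Dlk1* was at -0.93 at PN1 (adjusted p = 0.083, limma) and at -0.47 at E18.5 (adjusted p = 0.511). The PN1 differences include KO17 and KO18, and for *Per1* and *Zbtb16* the ScapΔ/Δ arrays overlapped with the controls. None of the differences in this paragraph was called.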
